A study of Mus musculus with 2 samples.

Results

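The nuclei described here were rich in Slc17a6, the gene of the vesicular glutamate transporter VGLUT2, and came from single-nucleus RNA-seq of the mouse cerebellum at postnatal day 1. They were chosen by their own UMIs (unique molecular identifiers, 1 per captured transcript). A nucleus was taken when it had at least 4000 UMIs, at most 5% of them from mitochondrial genes, at least 4 from Slc17a6, at most 1 from Pax6 and Neurod1 together, at most 1 from Gad1 and Gad2 together, at most 3 from Calb1, Skor2 and Car8 together, and none from Eomes or Tfap2d. This gave 94 nuclei of the 6174 that passed the filters on depth and mitochondrial share and of the 11803 barcodes in all. There were 24 in the control library and 70 in the other.

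There were 2 libraries, each from 12 pooled cerebella. The control library came from littermates without Cre, whose genotype is given as Tox3f/f in one label and as Tox3f/f or Tox3f/+ in another. The other came from Nestin-cre;Tox3f/f mice and is called the cKO-labelled library (cKO for conditional knockout) here. Nestin-cre acts in neural precursors and so in their progeny of many cell types, Tox3f/f is a Tox3 allele flanked by loxP sites, and no library held Cre without the floxed alleles, so an effect of Cre and one of Tox3 deletion cannot be told apart. With 1 library per group there was no test between groups. Every interval below is an exact 95% interval. It covers counting error only and leaves out how animals or libraries vary. For ratios of summed UMIs it also leaves out how nuclei vary, since the UMIs of all nuclei were pooled.

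Glutamatergic neurons of the cerebellar nuclei are born from the rhombic lip, pass through an Atoh1-expressing state, and become the main output neurons of the cerebellum. They release glutamate loaded by VGLUT2. Lhx9 marks a large set of them while young, Tbr1 marks those of the medial nucleus, and Meis2 marks the class broadly. Slc17a6 is not theirs alone, since other excitatory neurons, among them young granule neurons, unipolar brush cells and neurons of the neighbouring brainstem, use it too. Hence the markers that the rule did not use were examined first.

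Lhx9 (chromosome 1, 138825186 to 138848577, minus strand, GRCm38), a LIM homeodomain factor, was found in 10 of 24 control nuclei (41.7%, 22.1 to 63.4) and in 23 of 70 cKO-labelled nuclei (32.9%, 22.1 to 45.1). In all other nuclei it was found in 1.79% and 2.35%. The Slc17a6-rich nuclei were deeper than the others, so the shares were also computed as if every nucleus had 4000 UMIs. They were then 21.8% and 17.5%, against 1.14% and 1.52% in the other nuclei, so the gap to the other nuclei as a whole remained at equal depth. It did not hold against nuclei with a Tfap2d UMI, which the rule left out. Lhx9 was found in 14 of 43 of those in control and 12 of 56 in the cKO-labelled library, or in 27.5% and 18.4% at 4000 UMIs. In nuclei that should lack Lhx9, those with Purkinje cell markers, it was seen in 1.48% of 270 control nuclei and 0.269% of 744 cKO-labelled nuclei.

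Meis2 (chromosome 2, 115863064 to 116065839, minus strand), a TALE homeodomain factor, was found in 17 of 24 nuclei (70.8%, 48.9 to 87.4) and 39 of 70 nuclei (55.7%, 43.3 to 67.6), against 8.70% and 11.9% of other nuclei. Nuclei with a Tfap2d UMI had it in 53.5% and 33.9%. Per nucleus its level ran from 0 over a median of 511 to 4277 CPM (UMIs of a gene per 1000000 UMIs) in control, and from 0 over a median of 249 to 5610 CPM in the cKO-labelled library. The ranges overlapped almost wholly. Summed over the nuclei Meis2 stood at 1112 and 1164 CPM, a ratio of 1.05 (0.920 to 1.19).

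Tbr1 (chromosome 2, 61802930 to 61814114, plus strand), a T-box factor, was nearly absent. There were 3 UMIs in 2 of the 24 control nuclei and 0 in the 70 cKO-labelled nuclei. With 0 taken as 3 nuclei, a rough bound and not the exact interval, the share there would be up to 4.29%. Tbr1 was present elsewhere, in 22 control nuclei and 37 cKO-labelled nuclei past the filters, of which 2 and 0 met the rule. The other listed markers were sparse as well. Irx3 was found in 12.5% and 7.14%, Lhx2 in 8.33% and 7.14%, and Pou3f1 in 8.33% and 2.86%. Shallower comparison sets had fewer. In 63 control nuclei with 2 or more Eomes UMIs, Irx3 and Lhx2 were each found in 1 and Pou3f1 in none. None of these genes was found in 15 control and 40 cKO-labelled nuclei with microglia markers. Whether they set the Slc17a6-rich nuclei apart at equal depth was not tested. Reln did not set the nuclei apart, at 45.8% and 44.3% against 73.0% and 54.2% of other nuclei. Meis1 was common everywhere, at 100% and 77.1% against 76.6% and 61.1%, or 88.2% and 65.4% against 71.0% and 55.1% at 4000 UMIs. The name of glutamatergic cerebellar nuclei neurons therefore rests on Lhx9 and Meis2 in part of the nuclei, which nuclei with Tfap2d also held, and finds no Tbr1 population, so they are called Slc17a6-rich nuclei.

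**Figure D1:**
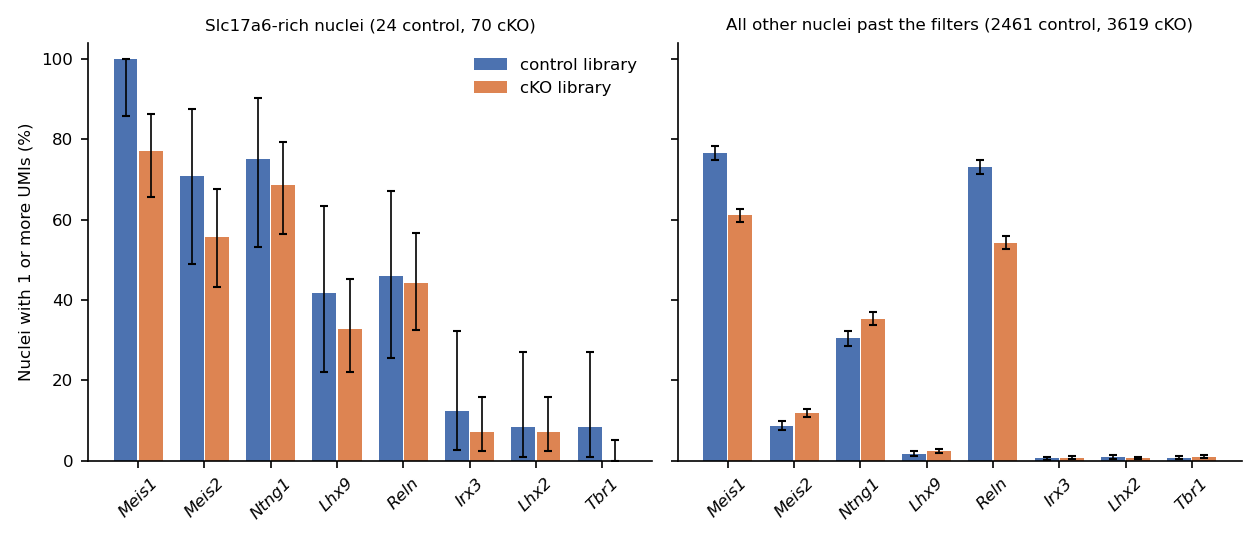
Share of nuclei with at least 1 UMI of 8 genes (vertical axis, %) in the Slc17a6-rich nuclei and in all other nuclei past the filters, for the control library (blue) and the cKO-labelled library (orange), with exact 95% intervals. Lhx9 and Meis2 stand above the pooled other nuclei in both libraries (41.7% and 32.9%, 70.8% and 55.7%), nuclei with Tfap2d are not drawn apart, and Tbr1 is near 0 in both.

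Markers of other cell types that the rule did not use were also read. Hox genes and other markers of hindbrain and midbrain neurons outside the cerebellum, 28 in the list, summed to 13.6 CPM (4 UMIs) in control and 80.6 CPM (59 UMIs) in the cKO-labelled library. In other nuclei they summed to 27.5 and 29.6 CPM, so in the cKO-labelled library these markers stood above the other nuclei and in control below them. Of the 28, 24 were at 0 in control, 17 in the cKO-labelled library and 15 in both. The vesicular inhibitory transporter Slc32a1 had 1 and 3 UMIs. Granule lineage markers summed to 156 and 119 CPM, against 720 and 463 CPM in other nuclei. Dividing cell genes summed to 112 and 72.4 CPM, against 471 and 249 CPM. Glia and vessel markers summed to 612 and 422 CPM, against 933 and 990 CPM. Purkinje cell markers outside the rule were higher, at 3640 and 5734 CPM, but below the 10013 and 12882 CPM of other nuclei. Their part in the results below was not tested.

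The control nuclei held 4093 to 19665 UMIs with a median of 12661, and those of the cKO-labelled library 4236 to 28291 with a median of 9997. Other nuclei had medians of 5842 and 6038 UMIs. Together the Slc17a6-rich nuclei gave 293936 and 732161 UMIs. No barcode of theirs occurred in both libraries, which shared 9 barcodes in all.

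The first question was whether their share differed between the libraries. Their share was 0.966% (24 of 2485 nuclei, 0.620 to 1.43) in control and 1.90% (70 of 3689, 1.48 to 2.39) in the cKO-labelled library, a ratio of 1.96 (1.22 to 3.27). The difference was not seen at the earlier steps of the rule. Nuclei with 4 or more Slc17a6 UMIs, before any other criterion, made up 3.06% in control (76 nuclei) and 2.63% in the cKO-labelled library (97 nuclei), a ratio of 0.860 (0.630 to 1.18). Of these 76 and 97 nuclei, 31.6% and 72.2% met the whole rule. The limit on Pax6 and Neurod1, factors of the granule lineage, was alone in removing 35 control nuclei but 13 of the cKO-labelled library, and 1 and 2 of those had Lhx9. Without it the shares were 2.37% (59 nuclei) and 2.25% (83 nuclei), a ratio of 0.948 (0.671 to 1.35).

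Pax6 and Neurod1 UMIs also differed in nuclei with Purkinje cell markers. More than 1 such UMI was found in 14.1% of control nuclei with Purkinje cell markers (38 of 270) and in 6.05% of those of the cKO-labelled library (45 of 744). Among nuclei with microglia markers it was 4 of 15 and 4 of 40, a ratio of 0.375 (0.0698 to 2.01) whose interval includes 1. Nuclei with at least 4 Pax6 and Neurod1 UMIs together and none from Eomes made up 22.6% of control nuclei and 10.3% of cKO-labelled nuclei. Set against nuclei with at most 1 Pax6 and Neurod1 UMI, the Slc17a6-rich nuclei made up 1.89% of 1268 and 2.66% of 2636, a ratio of 1.40 (0.871 to 2.33). How much of the difference these account for was not tested.

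Lhx9 gave a count that did not use Slc17a6. Past the filters and with no other criterion, nuclei with 2 or more Lhx9 UMIs made up 0.926% (23 nuclei) and 1.14% (42 nuclei), a ratio of 1.23 (0.723 to 2.14). Slc17a6 was found in 20 of the 23 and 34 of the 42, and 8 and 10 of them met the whole rule. More than 1 Pax6 and Neurod1 UMI was found in 4 of the 23 and 3 of the 42. With Lhx9 at 2 or more in place of the Slc17a6 limit and every other criterion kept, 11 of 2485 and 31 of 3689 nuclei remained. That setting was chosen after the values were seen. The pools differed in sex-linked transcripts. Xist without a Y-linked UMI was found in 9 of 24 and 53 of 70 Slc17a6-rich nuclei, and a Y-linked UMI without Xist in 13 and 14. The ratio of shares was 2.99 among nuclei with Xist only and 1.10 among those with Y-linked UMIs only. The difference between these ratios was not tested.

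**Figure D2:**
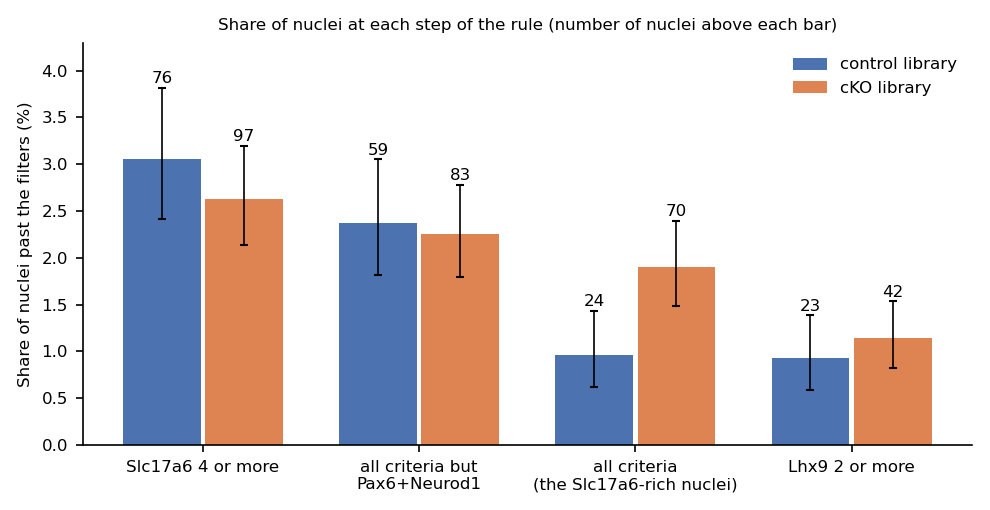
Share of the nuclei past the filters (vertical axis, %) at 3 steps of the rule and for Lhx9, in the control library (blue) and the cKO-labelled library (orange), with exact 95% intervals and the number of nuclei above each bar. The libraries stand close at the first and second step (76 and 97, 59 and 83 nuclei) and part at the third (24 and 70).

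Slc17a6 itself, which the rule used, ran from 4 to 14 UMIs with a median of 5 in both libraries. It summed to 480 and 534 CPM. Nuclei just inside the limit, at 4 UMIs, numbered 8 and 26, with Lhx9 in 2 and 5 and Meis2 in 5 and 15. Just outside it, at 3 UMIs with every other criterion met, there were 21 and 39 nuclei, with Lhx9 in 2 and 10 and Meis2 in 5 and 19.

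Next, the genes that set the Slc17a6-rich nuclei apart from all other nuclei were ranked in control and read in the cKO-labelled library. Since the nuclei were selected on UMIs, these levels are a description. Only genes with at least 100 UMIs in the control Slc17a6-rich nuclei were ranked. Genes sparser in control, such as Gm26871 (59 UMIs) and Dpyd (17 UMIs), could not enter in either library. Of 429 genes ranked, the first 15 were Meis2, Ntng1, Grin2a, Rmst, A230006K03Rik, Tafa1, Snhg11, Alk, Nell1, Cntn5, Meg3, Agbl4, Nkain2, Gm49678 and Ebf2. In the cKO-labelled library 12 of the 15 were at least 2-fold above other nuclei, against 10.0% of all ranked genes. Of the 15, 11 were also among the first 15 of the same 429 genes there. Meis2 was 12.8-fold above other nuclei in control and 11.1-fold in the cKO-labelled library. It came first of the 429 in both.

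The 3 of the 15 that were less than 2-fold above other nuclei in the cKO-labelled library were Cntn5 (3.83-fold in control, 1.12-fold there), Gm49678 (3.50 and 1.80) and Ebf2 (3.49 and 1.78). Ntng1 (chromosome 3, 109780040 to 110144011, minus strand), netrin G1, an axonal membrane protein of synapse formation, was 7.71-fold and 3.52-fold above. It was found in 18 of 24 and 48 of 70 nuclei, with per-nucleus medians of 803 and 350 CPM within overlapping ranges up to 4453 and 3610 CPM. Its level was 1351 CPM in control and 712 CPM in the cKO-labelled library, a ratio of 0.527 (0.461 to 0.602). Tafa1, a secreted chemokine-like protein, went the other way, at 4.92-fold and 9.62-fold, but 1 nucleus held 40.9% of its UMIs in the cKO-labelled library.

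Rmst, a long non-coding RNA of neural lineages, was 5.04-fold and 3.53-fold above other nuclei, and Grin2a, an NMDA receptor subunit, 5.23-fold and 3.36-fold. The non-coding RNAs Meg3 and Snhg11, abundant in neurons, reached 13210 and 3827 CPM in control and 14042 and 4495 CPM in the cKO-labelled library. In 3 control nuclei and 5 of the cKO-labelled library Meg3 was under 5000 CPM, a limit set after the values were seen with 1 nucleus of each library within 1000 CPM of it. These 8 held 4093 to 5119 UMIs and no Lhx9, all 8 had Nfib, Unc5c and Meis1, 7 had Reln, and 1 had Snhg11. Most other nuclei of the libraries, 78.3% and 63.9%, were under that limit too.

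Co-detection in single nuclei showed that the set was mixed. Lhx9 and Lmx1a, a LIM homeodomain factor of the roof plate and of unipolar brush cells (chromosome 1, 167689237 to 167848741, plus strand), were never found in the same nucleus. Lhx9 alone was found in 10 control nuclei and 23 of the cKO-labelled library, Lmx1a alone in 3 and 19, and neither in 11 and 28. Meis2 accompanied Lhx9 in 8 of 10 and 17 of 23 nuclei. With Lmx1a, Meis2 was found in 3 of 3 control nuclei but in 3 of 19 cKO-labelled nuclei. Pax5 was found with Lhx9 in 3 of its 4 control nuclei and 6 of its 9 nuclei in the cKO-labelled library. A UMI missing from a nucleus does not show that the gene is off.

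Zfhx4 and Zfhx3 are large zinc finger homeobox factors. In the cKO-labelled library 19 nuclei had both, 8 had Zfhx4 alone and 7 Zfhx3 alone. Zfhx4 was found in 13 of the 19 Lmx1a nuclei there, in 7 of 23 Lhx9 nuclei, and in 8 of 39 Meis2 nuclei. In control 2 nuclei had Zfhx4, 1 of them with Zfhx3, and neither had Lhx9 or Lmx1a. The antisense gene 2700069I18Rik (chromosome 3, 5177586 to 5220841, minus strand) overlaps the start of Zfhx4 (5218526 to 5415857, plus strand) by 2316 bases. It was found in 1 and 16 nuclei, and each of these 17 nuclei also had Zfhx4. Whether the counting used strand is not given in the sources used here, so UMIs in the overlap may belong to either gene.

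**Figure D3:**
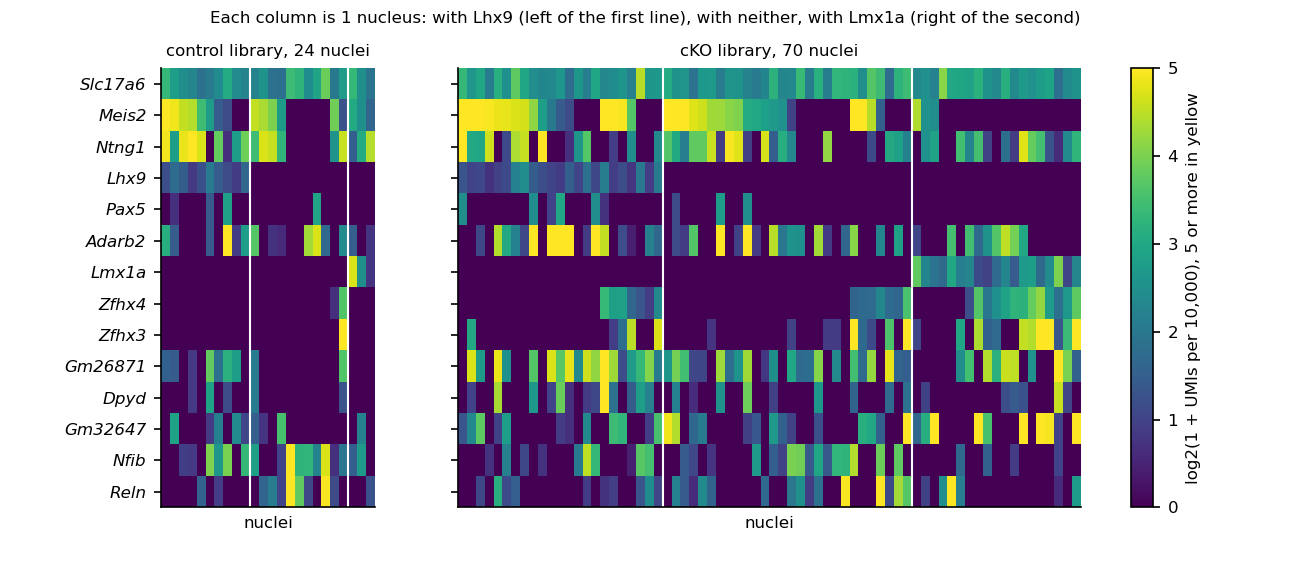
Depth-scaled UMIs of 14 genes (rows) in each of the 24 control nuclei and 70 cKO-labelled nuclei (columns), on the log2 scale of the colour bar, where yellow stands for 5 or more. White lines part nuclei with Lhx9 (10 and 23), with neither gene (11 and 28) and with Lmx1a (3 and 19), and 13 of the 27 nuclei with Zfhx4 in the cKO-labelled library lie among its 19 Lmx1a nuclei.

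Because Tbr1 was nearly absent, nuclei with Lhx9 were set against those without it in place of a Tbr1 set. Of 846 genes ranked in control, the 8 most above in Lhx9 nuclei were E130114P18Rik, Cdh20, Cdh11, Nrp1, Gm2516, Efna5, Zfpm2 and Lmo3. In the cKO-labelled library 4 of these 8 were also above 1, against 50.7% of all ranked genes, and 2 had an interval above 1. Of the 8 most below, 5 were also below 1 and 4 had an interval below 1. Cdh20, a cadherin, and Nrp1, the neuropilin 1 receptor of semaphorins, were above in both, at 486 and 271 CPM and at 338 and 174 CPM in Lhx9 nuclei. Control had 10 nuclei with Lhx9 and 14 without.

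The libraries were then compared across genes. Of 2016 genes with 100 or more UMIs in the pair of libraries, 43 (2.13%) were at least 2-fold higher in the cKO-labelled library and 25 (1.24%) at least 2-fold lower. At 1.5-fold it was 142 (7.04%) and 115 (5.7%). The median log2 ratio was -0.01, so the libraries were centred on each other. Single nuclei weighed heavily in control. Of the 25 lower genes, 15 had over 25% of their control UMIs from 1 nucleus, and of the 43 higher genes 5 had over 25% of their UMIs in the cKO-labelled library from 1 nucleus. Among all 2016 genes these were 149 and 14. When each gene was taken without its highest nucleus in each library, 46 genes of 1777 tested were higher and 16 lower.

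**Figure D4:**
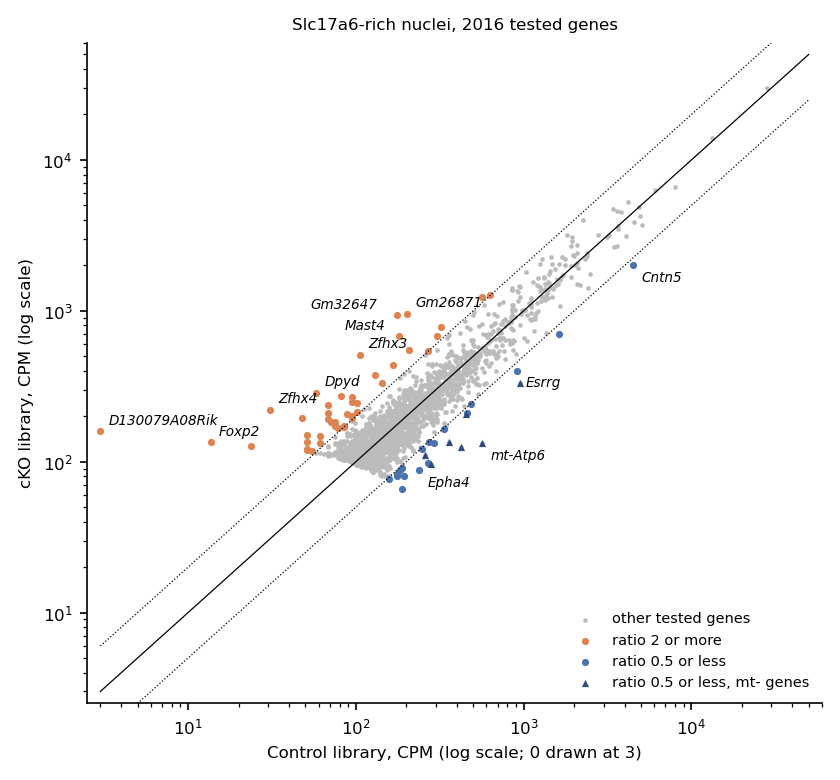
Level of 2016 genes in the Slc17a6-rich nuclei of the control library (horizontal, CPM, log scale) and of the cKO-labelled library (vertical, CPM, log scale). The solid line marks equal levels and the dotted lines 2-fold. Orange points are the 43 genes higher in the cKO-labelled library, blue points and dark triangles the 25 lower, of which 7 are mitochondrial.

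Zfhx4 was among the transcription factor genes with the highest ratios. It was found in 2 of 24 control nuclei (8.33%, 1.03 to 27.0) and 27 of 70 cKO-labelled nuclei (38.6%, 27.2 to 51.0), or in 5.19% and 32.4% at 4000 UMIs. Control had 9 UMIs, 8 of them in 1 nucleus, and the cKO-labelled library 162, at most 9.26% of them in 1. The level was 30.6 and 221 CPM, a ratio of 7.23 (3.71 to 16.1). 2700069I18Rik stood at 23.8 and 127 CPM, a ratio of 5.33 (2.49 to 13.6). Zfhx3 (chromosome 8, 107942644 to 108961630, plus strand) was found in 1 control nucleus, which held all 31 UMIs, and in 26 of 70 nuclei (37.1%, 25.9 to 49.5). Its level was 105 and 512 CPM, a ratio of 4.86 (3.36 to 7.25).

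Both factors were common among nuclei that the rule left out. Of nuclei with 4 or more Slc17a6 UMIs that failed another criterion, Zfhx4 was found in 15 of 52 control nuclei (28.8%) and 15 of 27 of the cKO-labelled library (55.6%), and Zfhx3 in 14 (26.9%) and 7 (25.9%). In nuclei with a Tfap2d UMI, which the rule also left out, Zfhx4 was found in 21 of 43 and 22 of 56, and Zfhx3 in 21 of 43 and 28 of 56. Zfhx3 was not confined to neurons. Nuclei with microglia markers had it in 13 of 15 and 33 of 40, and Zfhx4 in 3 of 15 and 2 of 40. Over all nuclei with 4 or more Slc17a6 UMIs the ratio was 2.75 for Zfhx4 and 1.68 for Zfhx3. Among nuclei with Xist only it was 1.84 and 1.33, and among those with Y-linked UMIs only 23.6 and 47.2. In all other nuclei Zfhx4 was at 95.6 and 111 CPM and Zfhx3 at 111 and 130 CPM.

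Gm26871, a non-coding gene (chromosome 3, 118430324 to 118530022, plus strand), and Dpyd (118562129 to 119432924, plus strand), which encodes the enzyme that starts pyrimidine breakdown, lie 32106 bases apart on the same strand. Gm26871 was found in 9 of 24 control nuclei (37.5%, 18.8 to 59.4) and 50 of 70 cKO-labelled nuclei (71.4%, 59.4 to 81.6). Its per-nucleus level ran from 0 over a median of 0 to 1301 CPM in control, and from 0 over a median of 455 to 4082 CPM in the cKO-labelled library. The summed level was 201 and 957 CPM, a ratio of 4.77 (3.65 to 6.33). In all other nuclei it was 115 and 155 CPM.

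Dpyd was found in 5 of 24 (20.8%) and 28 of 70 (40.0%) nuclei, at 57.8 and 287 CPM, a ratio of 4.96 (3.02 to 8.68), with 27.6% of the UMIs of the cKO-labelled library in 1 nucleus. In other nuclei it was at 30.6 and 39.8 CPM. All 5 control nuclei with Dpyd and 26 of the 28 of the cKO-labelled library also had Gm26871. Of the 15 genes with the highest ratios, these neighbours were the pair that stayed at least 2-fold higher in each of the 18 alternatives computed for them, from 2.99 to 9.05 for Gm26871 and from 3.45 to 19.5 for Dpyd. Over all nuclei with 4 or more Slc17a6 UMIs their ratios were 6.02 and 7.97.

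**Figure D5:**
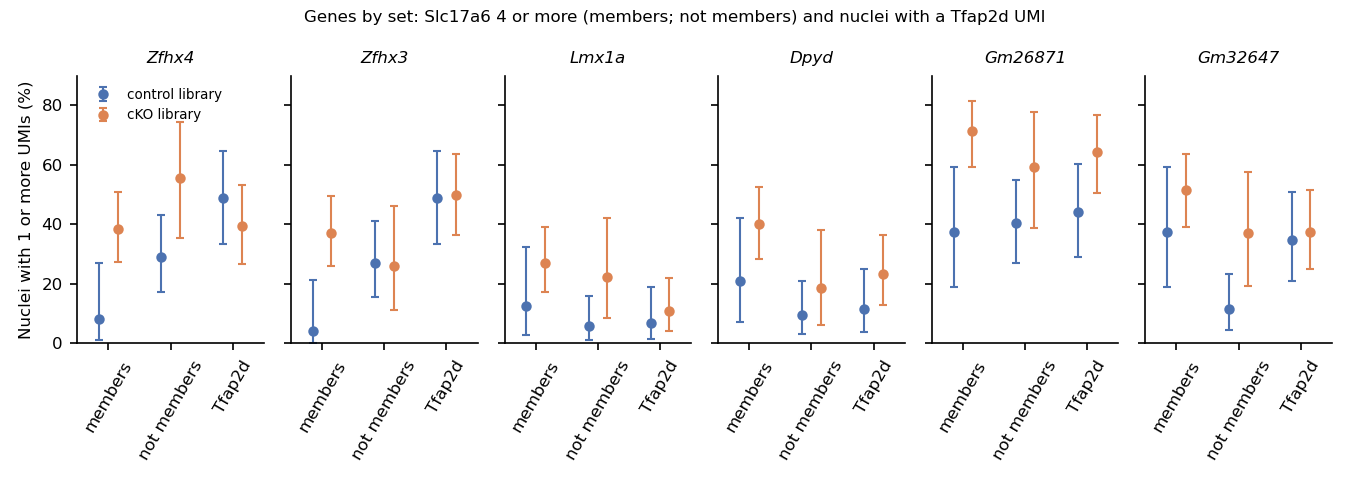
Share of nuclei with at least 1 UMI of 6 genes (vertical axis, %) in the Slc17a6-rich nuclei (members), in the nuclei with 4 or more Slc17a6 UMIs that failed another criterion (not members, 52 and 27 nuclei) and in nuclei with a Tfap2d UMI (43 and 56), for the control library (blue) and the cKO-labelled library (orange), with exact 95% intervals. Zfhx4 and Zfhx3 are lowest in the control members (8.33% and 4.17%), and Gm26871 has the higher share in the cKO-labelled library in each of the 3 sets.

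Gm32647, a non-coding gene (chromosome 7, 94042691 to 94709171, plus strand), was found in 9 of 24 and 36 of 70 nuclei, at 177 and 931 CPM, a ratio of 5.27 (3.97 to 7.12). In the 10 and 23 nuclei with Lhx9 it was at 162 and 225 CPM, and with the 2 control nuclei with Tbr1 added the ratio was 0.899. Among nuclei without Lhx9 the ratio was 6.90. Foxp2 (chromosome 6, 14901349 to 15441977, plus strand), a forkhead factor of Purkinje cells, had 4 UMIs in 3 control nuclei and 99 UMIs in 20 of 70 nuclei, at 13.6 and 135 CPM, a ratio of 9.94 (3.76 to 37.2). In other nuclei it was far higher, at 671 and 984 CPM, and over all nuclei with 4 or more Slc17a6 UMIs its ratio was 0.857. D130079A08Rik, a non-coding gene on chromosome 14, had 0 UMIs in control and 117 in the cKO-labelled library, at least 15.7-fold higher with control set to 3 UMIs over the group, but these lay in 4 nuclei and 53.0% of them in 1.

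Mast4, a microtubule-associated kinase, was found in 16 of 24 and 50 of 70 nuclei, with per-nucleus medians of 128 and 233 CPM, and its summed level of 180 and 680 CPM gave a ratio of 3.77 (2.84 to 5.11). Tle4, a Groucho corepressor, was found in 10 of 24 and 45 of 70 nuclei at 68.0 and 236 CPM, a ratio of 3.47 (2.18 to 5.83). Scg2, the secretogranin of dense-core vesicles, was at 81.7 and 272 CPM, a ratio of 3.33, Ldb2, the partner of LIM homeodomain factors, at 68.0 and 209 CPM, a ratio of 3.07, and Adcy2, an adenylyl cyclase, at 129 and 376 CPM, a ratio of 2.91. Mpped2, a phosphodiesterase, was at 47.6 and 194 CPM, a ratio of 4.07, and in other nuclei at 229 and 222 CPM. The lowest ratio among the alternatives was 1.01 for Ldb2, 1.18 for Tle4, 1.25 for Adcy2, 1.59 for Mpped2, 1.72 for Mast4 and 0.856 for Scg2.

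The lower genes began with the mitochondrial genome. All 7 mitochondrial genes tested were at least 2-fold lower in the cKO-labelled library, from mt-Atp6 (568 and 132 CPM, 4.29-fold lower) to mt-Co1 (456 and 206 CPM, 2.21-fold lower). These are transcripts of the cytoplasm, and 1 control nucleus held 35.1% to 51.3% of the control UMIs of each. Their pooled share was 0.368% in control and 0.128% in the cKO-labelled library, against 0.270% and 0.172% in other nuclei. When nuclei with over 1% mitochondrial UMIs were left out, 13 of 1942 tested genes were lower, in place of 25 of 2016.

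Cntn5 (chromosome 9, 9660891 to 10904775, minus strand), a contactin of axon contacts, was found in 23 of 24 and 68 of 70 nuclei. Per nucleus it ran from 0 over a median of 2592 to 30598 CPM in control, and from 0 over 1831 to 7471 CPM in the cKO-labelled library. The summed level was 4470 and 2006 CPM, 2.23-fold lower, and 1 control nucleus held 37.7% of its UMIs. Without the highest nucleus of each library the ratio was 0.615. Esrrg, an orphan nuclear receptor, was at 919 and 402 CPM, 2.29-fold lower, with 30.7% of control UMIs in 1 nucleus. Without the highest nuclei its ratio was 0.510. Its per-nucleus medians of 337 and 254 CPM lay closer than the sums.

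Epha4, an ephrin receptor of axon guidance (chromosome 1, 77367185 to 77515088, minus strand), was spread more evenly. It was found in 15 of 24 control nuclei (62.5%, 40.6 to 81.2) and 21 of 70 nuclei, at 238 and 87.4 CPM, 2.72-fold lower, and at most 15.7% of control UMIs lay in 1 nucleus. In other nuclei it was lower in control, at 101 and 154 CPM. Nfib and Nfia, nuclear factor I genes of neuronal maturation, were at 459 and 210 CPM and at 272 and 135 CPM, or 2.18-fold and 2.01-fold lower. Both were also lower in the other cKO-labelled nuclei, at 1577 and 1039 CPM and at 1203 and 635 CPM. The non-coding genes Gm19744 and 4930555F03Rik, both on chromosome 8, were 2.85-fold and 2.33-fold lower.

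Tox3 (chromosome 8, 90247040 to 90348343, minus strand), the targeted gene, could not check the label. It had 16 UMIs in 8 of 24 control nuclei and 33 UMIs in 16 of 70 cKO-labelled nuclei, at 54.4 and 45.1 CPM, a ratio of 0.828 (0.443 to 1.61). In other nuclei it was at 96.2 and 106 CPM. UMIs can come from parts of the gene outside the deleted stretch, so this says nothing about deletion. Tox4 was at 61.2 and 43.7 CPM (0.714, 0.389 to 1.35), and Tox2 had 3 and 12 UMIs. Tox, a relative with the same kind of high mobility group box, was at 51.0 and 150 CPM, a ratio of 2.94 (1.71 to 5.44), and was found in 9 of 24 and 35 of 70 nuclei. Its ratio was 1.62 among nuclei with Xist only and 9.08 among those with Y-linked UMIs only. Atoh1, the proneural factor of the rhombic lip, had 0 UMIs in either set. With 0 taken as 3 nuclei, a rough bound and not the exact interval, shares would be up to 12.5% and 4.29%. The exact upper limit for 0 of 24 nuclei is 14.2%.

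Of the 13 genes that the study followed in granule neurons, a list it chose on these samples, 4 could be compared here and none differed by 2-fold. Of all 2016 genes, 2.13% were at least 2-fold higher and 1.24% at least 2-fold lower, so none among 4 does not set the list apart. Lingo2, an adhesion protein of synapses, was at 1772 and 2021 CPM (1.14, 1.03 to 1.26), Kctd8, an auxiliary subunit of GABA-B receptors, at 303 and 337 CPM (1.11, 0.871 to 1.44), Tcf20 at 139 and 171 CPM (1.22, 0.854 to 1.79), and Btbd11 at 116 and 178 CPM (1.54, 1.05 to 2.31). The other 9 had too few UMIs. Fgf8 and Pgf had none, and Barhl1 had 3 and 1.

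Lists of genes of neuronal function were read beside all 2016 genes, of which 1759 lay within 1.5-fold, 7.04% were at least 1.5-fold higher and 5.7% at least 1.5-fold lower. At least 2-fold higher were 2.13% of all genes, and at least 2-fold lower 1.24%. Of 20 glutamate release and receptor genes tested, none differed by 2-fold, 5 were at least 1.5-fold higher in the cKO-labelled library, 1 was lower and 14 lay within 1.5-fold, and the median log2 ratio was 0.23, the furthest above 0 of the lists with over 10 genes tested. Grm7, a presynaptic metabotropic receptor, was at 507 and 983 CPM (1.94), Gria1, an AMPA receptor subunit, at 194 and 384 CPM (1.98, with 40.4% of control UMIs in 1 nucleus), and Grik2, a kainate receptor subunit, at 2395 and 2404 CPM (1.00, 0.919 to 1.10). Grin1, the obligate NMDA receptor subunit, was at 170 and 111 CPM (0.650).

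Of 15 GABA and glycine receptor genes tested, none differed by 2-fold and 14 lay within 1.5-fold, with a median log2 ratio of 0.00. Of all 2016 genes, 1759 lay within 1.5-fold. Counts near that share, here and for the channel genes below, do not set these lists apart. Gphn, the scaffold of inhibitory synapses, stood at 725 and 660 CPM (0.910), while Gabrg3 reached 259 and 507 CPM (1.96). Of 21 potassium channel genes, 20 lay within 1.5-fold with a median log2 ratio of 0.08. Kcnd2, the channel of transient currents, was at 2385 and 2325 CPM (0.975, 0.892 to 1.07). The exception was Kcnc2, a channel of fast-spiking neurons, at 218 and 370 CPM (1.70), found in 7 of 24 and 48 of 70 nuclei. Of 18 sodium and calcium channel genes 17 lay within 1.5-fold, and Cacna2d1, an auxiliary calcium channel subunit, was 2.02-fold higher (633 and 1281 CPM, 1.73 to 2.38).

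Among 25 transcription factor genes of the rhombic lip and neurons, 3 were at least 2-fold higher (Foxp2, Zfhx4, Zfhx3) and 4 lower (Esrrg, Nfib, Nfia, Sox5), beside 2.13% and 1.24% of all genes. The list holds factors that differ between cell types and was drawn up with earlier results known. Its median log2 ratio was -0.22. Myt1l, a neuronal zinc finger factor, was at 1650 and 1078 CPM (0.653). Of 27 axon guidance genes, Plxnc1 was higher (51.0 and 120 CPM, 2.36-fold), Epha4 lower, 7 were at least 1.5-fold lower and 4 at least 1.5-fold higher, beside 5.7% and 7.04% of all genes, with a median of -0.29. Robo1 was at 1432 and 1836 CPM (1.28). Of 54 adhesion and synapse assembly genes, 44 lay within 1.5-fold, Nxph1, a ligand of neurexins, was 2.25-fold higher and Cntn5 lower. Their median log2 ratio was 0.08.

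Of 9 neuropeptide and growth factor genes tested, none differed by 2-fold, beside 2.13% higher and 1.24% lower of all 2016 genes. Nrg3 was at 4851 and 4853 CPM (1.00, 0.940 to 1.06), its receptor Erbb4 at 2429 and 1419 CPM (0.584), Igf1r at 344 and 173 CPM (0.505) and Fstl5 at 347 and 662 CPM (1.91). Both stress genes tested, Hsp90aa1 (1.11) and Hspa5 (0.924), lay close to 1. The 4 Purkinje cell markers tested had a median log2 ratio of 0.85, so higher in the cKO-labelled library. Among them Rora, a nuclear receptor, was at 582 and 1090 CPM (1.87). The 3 tested markers of unipolar brush cells had a median log2 ratio of 0.35. Of these Lmx1a was at 68.0 and 127 CPM (1.87), and 1 control nucleus held most of its 20 UMIs there. The single tested gene of inhibitory interneurons, Sorcs3, was at 1.42, and that of glia, P2ry12, at 0.830. Xist was at 500 and 936 CPM (1.87), and found in 11 of 24 and 54 of 70 nuclei.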

How the data were processed

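According to the labels and the methods of the study, the authors prepared 10x Genomics 3′ v3.1 libraries and counted reads with Cell Ranger 7.0.1 on mm10, and the deposited values are raw UMI counts per gene and nucleus. Whether introns were counted is not given in the sources used here. The gene symbols and nucleus barcodes (other text columns) were used as deposited. No correction for free RNA was applied here, and doublets were removed only in an alternative (Scrublet in scanpy 1.11.5, top 0.8% per 1000 barcodes), since its automatic threshold marked 0.0206% of control barcodes. Counts were summed over the 24 and 70 nuclei and divided by their total UMIs (CPM). Depth behind each value is 293936 and 732161 UMIs. Genes of the rule were left out, and 2016 genes with at least 100 UMIs were compared. Called genes had a CPM ratio of at least 2 or at most 0.5. Intervals were Clopper-Pearson for shares, Poisson for sums and conditional binomial for ratios at 95%, for counting error only. A count of 0 was taken as 3 counts for a bound, and no ratio was formed where both libraries had 3 UMIs or fewer. Shares at 4000 UMIs are means over all thinnings. Coordinates came from GENCODE M21 on GRCm38, which held 32235 of the 32285 gene identifiers.

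The nuclei, lists and tests were chosen with earlier results of these data known. Named genes were the 15 highest and 15 lowest ratios, up to 2 most abundant, highest and lowest genes of each list, the 15 genes furthest above other nuclei in control, the genes of the rule, the Tox family, Atoh1, the markers of cerebellar nuclei and the genes the study followed. The text gives most of them, and some genes are not reported here. Pax5, 2700069I18Rik with Zfhx4, Dpyd with Gm26871, and the comparison sets (Purkinje cell, microglia, Pax6 and Neurod1, and Tfap2d nuclei) were picked after the values were seen. The microglia set was redefined on Csf1r, C1qa, C1qb, Inpp5d and Ptprc, as its first genes were found in many nuclei. A ranking of Tbr1 against Lhx9 nuclei was planned but could not be run with 2 Tbr1 nuclei. The ratio and its interval were tested on simulated data. Python 3.11.15, numpy 2.4.6, scipy 1.17.1, pandas 2.3.3 and matplotlib 3.10.9 were used.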

Additional observations from a re-analysis of the deposited data

How the results depend on the processing

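No paired analysis was possible because each group held 1 library. For the share, the counts and Tox3, settings that left the value within 1.5 times (counts) or within its counting interval (ratios) are not listed. For named genes the ratios that crossed 1 are listed. The ratio of shares of 1.96 fell below 1 without a limit on Pax6 and Neurod1 (0.948) and for all nuclei with 4 or more Slc17a6 UMIs (0.860), and was 1.10 among nuclei with Y-linked UMIs only. The 43 higher and 25 lower genes of 2016 tested became 17 and 6 of 134 with each nucleus thinned to 4000 UMIs. They became 12 and 5 of 521 at a minimum of 300 UMIs, 267 and 156 of 5734 at 30, and 1379 and 1005 of 18633 at 1 UMI. At 1.5-fold they were 142 and 115 of 2016. Without the limit on Pax6 and Neurod1 they were 77 and 77 of 2846, and for all nuclei with 4 or more Slc17a6 UMIs 84 and 95 of 3630. Higher genes were 78 of 1243 among nuclei with Xist only and 27 of 432 with Y-linked UMIs only. Lower genes were 12 of 641 at 6 Slc17a6 UMIs and 13 of 1942 at a mitochondrial share of at most 1%. They were 16 of 850 with Lhx9 in place of Slc17a6, and 16 of 1777 without each gene's highest nuclei. The number tested differs between settings, so a lower count can be a higher share. The Tox3 ratio of 0.828 was 0.111 among nuclei with Y-linked UMIs only. The settings without the limit on Pax6 and Neurod1, with all nuclei of 4 or more Slc17a6 UMIs, with Lhx9 in place of Slc17a6, without Lhx9 and without the highest nuclei were chosen after seeing the data. The cause was not tested, save that fewer genes or nuclei entered some.

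Ratios that crossed 1 were mt-Nd4 at 6 Slc17a6 UMIs (1.41) and thinned (2.43), mt-Nd2 at a mitochondrial share of at most 1% (1.06) and thinned (2.03), 4930555F03Rik (4.26) and Esrrg (1.25) thinned, Tox at 2 Slc17a6 UMIs (0.996), Gm32647 with Tbr1 or Lhx9 (0.899), E130114P18Rik with Xist only (1.41), with Y-linked UMIs only (1.24) and without Lhx9 (5.45), Pde3a (2.66) and Tmtc1 (1.07) with Xist only, Foxp2 for all nuclei with 4 or more Slc17a6 UMIs (0.857), and 4930555F03Rik (1.01) and Scg2 (0.856) with Lhx9 in place of Slc17a6. These are 16 of 532 ratios of named genes. Others lost 2-fold without crossing 1. Thinned, 9 of the 15 highest stayed past 2-fold, and 1 of the 12 lowest that had a value. Without the limit on Pax6 and Neurod1, 15 of the 15 highest and 5 of the 15 lowest did, and with Xist only 10 and 8. List medians moved by 0.3 or more on the log2 scale in 52 of 290 cases, which include the same setting. With 24 control nuclei, genes under 100 UMIs could not be compared.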
